A study of Mus musculus with 10 samples.

Results

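The keratin gene family was examined in 10 mouse melanoma tumours, 6 with the genotype BrafCA;Cdkn2af/f; Arf6Q67L and 4 with the genotype BrafCA;Cdkn2af/f, the controls. All 10 tumours carry BrafCA, a Cre-activated oncogenic allele of Braf, and floxed alleles of the tumour suppressor Cdkn2a, and the 6 carry in addition Arf6Q67L, which encodes constitutively active ARF6, a small GTPase. Which driver expressed Cre, and which cells express Arf6Q67L, is not stated in the labels. The members are the protein-coding genes of the count table whose symbol in the GRCm38 annotation is Krt followed by a number, 53 of 52636 genes. Krt74, which the annotation holds as a pseudogene, is not among them, and keratin-associated proteins (Krtap) are not keratins and were left out.

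Keratins are the intermediate filament proteins of epithelial cells. A filament is built from pairs of an acidic type I and a basic type II chain, so that a cell normally makes its keratins in fixed partnerships: Krt8 with Krt18 in simple epithelia, Krt5 with Krt14 in the basal layer of the epidermis, Krt1 with Krt10 in the layers above it, and hair keratins in the shaft of the hair. Melanocytes are not epithelial cells and use vimentin as their main intermediate filament, and Krt8 and Krt18 have long been known from a share of melanomas. Krt20 is a type I keratin of intestinal epithelium, urothelium and Merkel cells.

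Libraries held 28635414 to 40869091 counts. Levels are CPM, a count scaled to library size with TMM factors. A level is set beside that of another gene only per kilobase of exon. A count of 0 allows up to 3 counts, which is 0.0761 to 0.106 CPM in these libraries, and covers counting error only. Arf6 itself averaged 104.5 ± 21.3 CPM in the 6 Arf6Q67L tumours and 93.0 ± 17.4 CPM in the 4 controls (SD). The base change is not read from counts, so the labels could not be checked by it. Of the 7 melanocyte markers listed, Tyr and Dct had no count in any tumour, and Mlana and Tyrp1 stayed at or below 0.101 CPM. Pmel lay between 0.524 and 0.940 CPM, Sox10 between 0.0629 and 2.83 CPM, and Mitf between 11.07 and 26.1 CPM. Transcripts of the pigment enzymes Tyr, Dct and Tyrp1 were thus at or near 0 in tumours labelled melanoma.

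The promoters of the 4 keratins with a mean of at least 10 CPM are shown here because these 4 genes carry nearly all keratin counts. Each window holds 250 bases before and 30 after the start given by RefSeq (GRCm38.p6), 5′ to 3′ on the strand of the gene, with matches to the letters TATAAA in capitals. Krt8 lies at chr15:102004313-102004592, minus strand. Krt18 lies at chr15:102027966-102028245, plus strand. Krt20 lies at chr11:99438124-99438403, minus strand. Krt76 lies at chr15:101892891-101893170, minus strand.
Krt8: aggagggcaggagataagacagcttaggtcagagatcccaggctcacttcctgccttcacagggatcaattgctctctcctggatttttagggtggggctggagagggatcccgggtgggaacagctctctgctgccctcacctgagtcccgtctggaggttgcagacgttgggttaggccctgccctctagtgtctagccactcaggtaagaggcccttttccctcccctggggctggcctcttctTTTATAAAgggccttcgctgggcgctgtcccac
Krt18: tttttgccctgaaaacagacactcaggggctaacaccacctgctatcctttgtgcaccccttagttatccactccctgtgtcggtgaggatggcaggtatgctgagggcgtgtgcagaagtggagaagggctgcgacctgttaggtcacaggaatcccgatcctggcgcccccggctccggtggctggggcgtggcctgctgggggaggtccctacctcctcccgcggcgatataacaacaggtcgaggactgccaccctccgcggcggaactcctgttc
Krt20: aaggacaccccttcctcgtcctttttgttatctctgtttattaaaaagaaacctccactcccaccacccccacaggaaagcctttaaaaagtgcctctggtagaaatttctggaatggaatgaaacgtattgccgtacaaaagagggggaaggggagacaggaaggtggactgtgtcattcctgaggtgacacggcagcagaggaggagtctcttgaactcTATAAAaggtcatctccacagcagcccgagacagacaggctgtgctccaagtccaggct
Krt76: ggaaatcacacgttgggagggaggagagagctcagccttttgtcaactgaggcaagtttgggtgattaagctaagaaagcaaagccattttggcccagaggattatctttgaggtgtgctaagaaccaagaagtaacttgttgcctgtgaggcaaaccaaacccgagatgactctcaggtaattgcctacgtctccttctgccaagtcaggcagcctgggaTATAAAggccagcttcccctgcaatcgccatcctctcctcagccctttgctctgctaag
The letters TATAAA, the core of a TATA box, began at position -29 from the start in both Krt20 and Krt76. In Krt8 a match on each strand, the pair overlapping, lay across the RefSeq start, and Krt18 had no match. The GENCODE annotation begins Krt8 at chr15:102004482, inside the window and upstream of the RefSeq start. The position of the Krt8 matches thus depends on the annotation used. On either strand TATAAA was found in 19 of the 36 keratins with a window, against 13.1% of 32817 windows over all genes. The other motifs searched on both strands were GGGCGG (a GC box), TGANTCA (an AP-1 site) and CACGTG (an E-box). GGGCGG was in 2 of the 36 keratins against 34.7% of all windows, TGANTCA in 1 against 7.47%, and CACGTG in 3 against 6.79%. Such matches describe letters only. None of these 3 was in the windows of Krt8, Krt18, Krt20 or Krt76.

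The tumours held mostly simple keratins, some Krt76, and almost no basal epidermal or hair shaft keratins. Krt8, Krt20 and Krt18 together made up 88.1% to 97.8% of all keratin CPM in a tumour. Of the 53 members, 10 reached a mean of 1 CPM, 4 reached 10 CPM, 29 never exceeded 10 counts in a library and 9 had no count at all. Summed over the family, keratins came to 1503 ± 1194 CPM in the 6 Arf6Q67L tumours and 2195 ± 488 CPM in the 4 controls (SD). Within the Arf6Q67L group it was 211 CPM in tumour 6 and 3015 CPM in tumour 3, a range that holds every control. Per kilobase of exon, Krt8 was the highest keratin in 7 tumours and Krt20 in 3, namely Arf6Q67L tumours 2 and 6 and control 4.

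**Figure D1:**
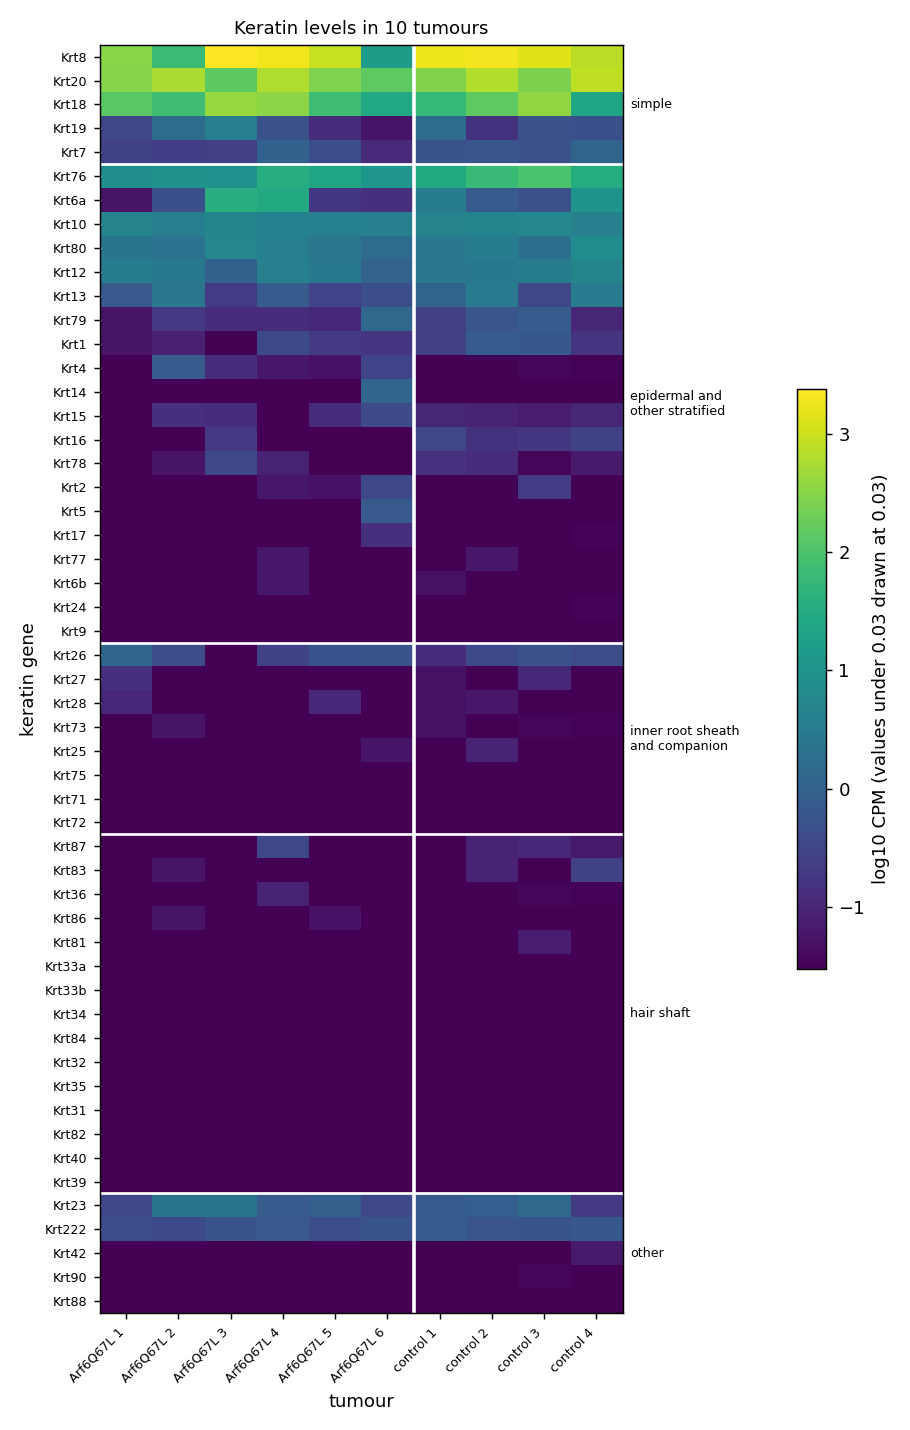
Level of each of the 53 keratin genes (rows, grouped by class) in each tumour (columns, Arf6Q67L left of the white line and controls right of it), as log10 CPM. Krt8, Krt20 and Krt18 form the bright band at the top, and no hair shaft row exceeds 0.345 CPM in any of the 10 tumours.

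Krt8, the type II keratin of simple epithelia, was the most abundant member and the one that varied most among those at high level. It had a lowest value of 14.96, a median of 634 and a highest value of 2399 CPM in Arf6Q67L tumours, against 1776, 1971, 1369 and 759.5 CPM in controls 1 to 4. Arf6Q67L tumours 6, 2 and 1 lay below every control and tumour 3 above every control, so the groups overlapped. On the log2 scale the fold change was -0.65 (SE 1.05; edgeR adjusted p = 0.848), and limma-voom with sample weights gave -2.09 (adjusted p = 0.499). The highest tumour was 160 times the lowest. The SD of log2 CPM within groups was 2.33, larger than in 99.2% of the 17286 genes tested. Its mean level per kilobase was above that of 99.8% of them.

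Krt18, the type I partner of Krt8, also varied widely between tumours. Its lowest value was 26.6, its median 104 and its highest 413 CPM in Arf6Q67L tumours, against 57.6, 143.5, 360.2 and 24.2 CPM in controls 1 to 4. The groups overlapped throughout, with control 4 the lowest of all tumours and Arf6Q67L tumour 3 the highest. Its log2 fold change of 0.26 (SE 0.86) had an edgeR adjusted p of 0.937, and the sign turned when Arf6Q67L tumour 3 or 4 or control 1 or 4 was left out (-0.19, -0.03, -0.01 and -0.09), while it was 1.22 without control 3. Within groups the SD of log2 CPM was 1.56, larger than in 96.0% of genes tested.

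The partners were present in unequal amounts. Per kilobase of exon, Krt8 exceeded Krt18 in 8 tumours, and Krt18 exceeded Krt8 in Arf6Q67L tumours 2 and 6. The ratio of Krt8 to Krt18 per kilobase was 1.79, 0.622, 4.26, 4.16, 9.75 and 0.413 in Arf6Q67L tumours 1 to 6, with a median of 2.97. In controls 1 to 4 it was 22.6, 10.1, 2.79 and 23.0, with a median of 16.4. Of the controls, 3 had a ratio above every Arf6Q67L tumour, and control 3 lay within their range. The difference in ratio between the genotypes was not tested. The highest ratio was 55.7 times the lowest, while both genes stood far above the floor in every library (at least 523 counts for Krt8 and 722 for Krt18). Over the 6 pairs among Krt8, Krt18, Krt20 and Krt76, none of the correlations of log2 CPM over the 10 tumours passed adjustment. Krt8 and Krt18 had the highest, with Pearson's r of 0.58 (permutation p = 0.0764, adjusted p = 0.318) and Spearman's rho of 0.65 (permutation p = 0.0481, adjusted p = 0.289), and r was 0.42 without Arf6Q67L tumours 2 and 6, the 2 tumours farthest from the median of Krt8. Within the 6 Arf6Q67L tumours r was 0.87, given as a description, and 4 controls are too few for a value. The pairs were computed after values had been seen.

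**Figure D2:**
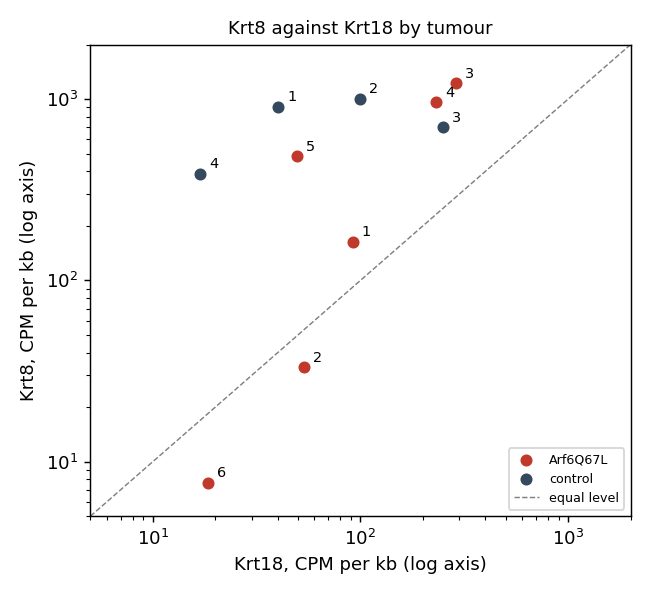
Krt8 against Krt18 in each tumour, both in CPM per kilobase of exon on log axes, with the tumour number beside each point and a dashed line of equal level. Controls 1, 2 and 4 lie far above the line, at ratios of 10.1 or more, with Arf6Q67L tumour 5 close to them at 9.75. Control 3, at 2.79, lies within the range of the Arf6Q67L tumours, of which 2 and 6 lie below the line.

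Reads of Krt8 could fall on a copy of its transcript. Krt8-ps, a processed pseudogene on chromosome 7, matched Krt8 over 941 bases at 98.6% identity, and drew 448 counts over all libraries against 380552 for Krt8. How multiply matching reads were counted is not given, so these counts cannot show whether reads of Krt8 were dropped.

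Krt20 was the second most abundant member. Its lowest value was 137.5, its median 290.0 and its highest 639 CPM in Arf6Q67L tumours, against 285, 649.8, 254 and 817 CPM in controls 1 to 4. Arf6Q67L tumours 3 and 6 lay below every control, and the other 4 lay within the range of the controls. Its log2 fold change of -0.54 (SE 0.51) had an edgeR adjusted p of 0.727. Across tumours Krt20 stayed within a factor of 5.94, much less than Krt8. Its r with Krt8 was 0.21 (permutation p = 0.577, adjusted p = 0.692) and with Krt18 -0.13 (permutation p = 0.703, adjusted p = 0.703). Arf6Q67L tumour 3 thus held the highest Krt8 and Krt18 and the lowest Krt20.

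The other simple keratins were scarce. Krt19, a small type I keratin that lacks most of the tail, ran from 0.0572 CPM in Arf6Q67L tumour 6 to 3.799 CPM in tumour 3, and from 0.157 to 1.57 CPM in controls (log2 fold change 0.66, SE 1.06, edgeR adjusted p = 0.848; -0.34 without Arf6Q67L tumour 3). Krt7, the type II keratin of ducts and glands, had a lowest value of 0.114, a median of 0.263 and a highest of 1.003 CPM in Arf6Q67L tumours, against 0.532, 0.629, 0.493 and 1.14 CPM in controls 1 to 4. Of the 6 Arf6Q67L tumours, 5 lay below every control, tumour 4 being the exception. The difference, -0.84 on the log2 scale (SE 0.53), had an edgeR adjusted p of 0.572.

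**Figure D3:**
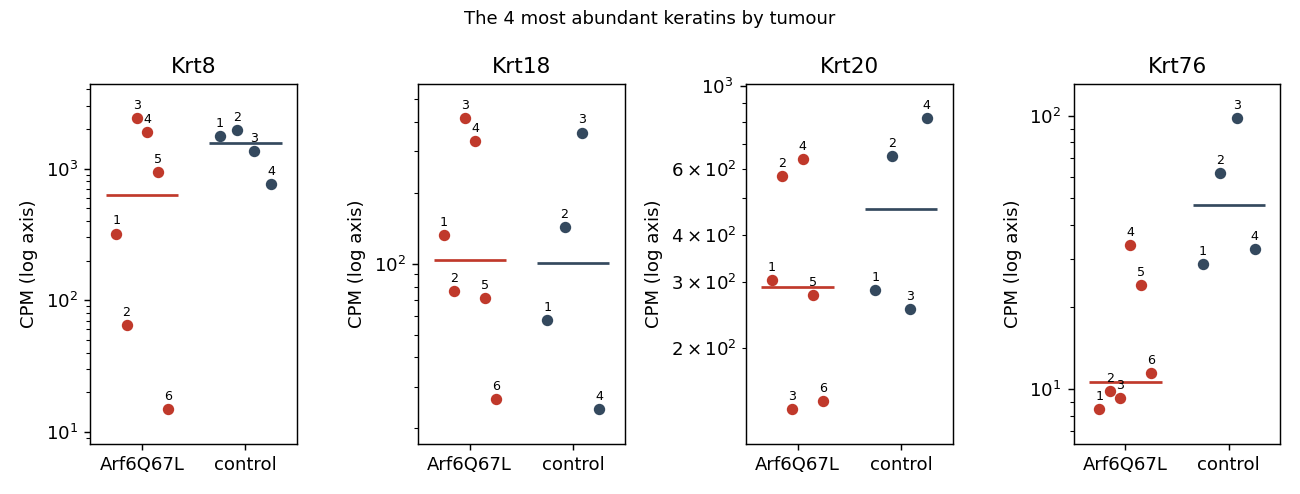
Level of Krt8, Krt18, Krt20 and Krt76 in each tumour, in CPM on log axes, with Arf6Q67L tumours left and controls right, the tumour number above each point and a bar at the group median. The groups overlap in all 4 panels, least in that of Krt76, where 5 of 6 Arf6Q67L tumours lie below every control.

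Krt76 showed the difference of lowest p in the family. This type II keratin of the upper layers of oral and palatal epithelium had a lowest value of 8.47, a median of 10.7 and a highest of 33.8 CPM in Arf6Q67L tumours, against 28.8, 61.8, 98.0 and 32.5 CPM in controls 1 to 4. All Arf6Q67L tumours but tumour 4 lay below every control, and the means were 16.1 ± 10.4 CPM (SD, n = 6) and 55.3 ± 32.1 CPM (SD, n = 4). The difference was -1.77 on the log2 scale (SE 0.49), with an unadjusted p of 0.00454 and an adjusted p of 0.282 in edgeR, which does not pass. DESeq2 called it, at -1.76 with an adjusted p of 0.0287. The exact permutation test gave p = 0.019, adjusted p = 0.229 over the 12 keratins so tested. Without 1 tumour at a time, the edgeR fold change ran from -2.13 without Arf6Q67L tumour 4 to -1.34 without control 3, with adjusted p-values from 0.199 to 0.537. Krt5 and Krt14 had at most 1 count in 9 of the 10 libraries and 0.715 and 1.17 CPM in Arf6Q67L tumour 6, and Krt1 did not exceed 0.817 CPM in any.

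Lists of T cell, endothelial and macrophage markers had median log2 fold changes of -2.24, -0.88 and -0.78, with sums that overlapped between the groups and 0 markers past the threshold in edgeR. The summed level of 6 T cell markers lay between 3.14 and 60.1 CPM in Arf6Q67L tumours and between 18.2 and 264 CPM in controls. Controls 1 and 3 held 21.8 and 18.2 CPM, within the Arf6Q67L range, and controls 2 and 4 held 171 and 264 CPM. The sum of 6 endothelial markers lay between 66.4 and 257 CPM in Arf6Q67L tumours and between 119 and 289 CPM in controls. Cdh5 in Arf6Q67L tumour 1 gave 184 of the 257 CPM. At an unadjusted p under 0.05 in edgeR, 4 of the 6 markers were lower in each of the T cell, endothelial and macrophage lists. Over all genes tested the share was 7.05%. Among these lists DESeq2 called only the endothelial Emcn (adjusted p = 0.0195) and Pecam1 (adjusted p = 0.0454), where it called 2.02% of all genes it tested. For 6 macrophage markers the sums were 619 to 1485 CPM in Arf6Q67L tumours and 1005 to 2544 CPM in controls. Adipocyte markers had the lowest median log2 fold change of the marker lists, -2.61 over 5 tested. At an unadjusted p under 0.05 in edgeR 3 of them were lower, against the same 7.05% of all genes. Their sums were 5.63 to 73.2 CPM in Arf6Q67L tumours and 14.2 to 188 CPM in controls. Control 4 alone held the 188 CPM, and controls 1 to 3 held 67.7, 29.2 and 14.2 CPM, within the Arf6Q67L range. None of these 4 lists had a marker at 0 in all tumours, and their part in the Krt76 difference was not tested. In bulk tissue, fewer cells of a type and less RNA per cell cannot be told apart. The same holds for genotype and the order of the library identifiers, in which the Arf6Q67L tumours all precede the controls.

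Of the 53 keratins, 14 passed the filter on low counts and were tested. In edgeR 0 passed the threshold of an adjusted p of 0.05, as did 0% of all 17286 genes, and at an unadjusted p under 0.05 there was 1, Krt76, where 11.7% of all genes had such a p, 4.65% with a higher and 7.05% with a lower level in Arf6Q67L tumours. DESeq2 called 1 keratin, and 2.02% of the genes it tested. With no filter 44 keratins could be tested and 0 passed. The groups overlapped for all 14, where they were separate for 2.44% of all genes. Of the 14, 5 had a positive and 9 a negative log2 fold change, against 50.3% negative among all genes, and the median was -0.34, against -0.0018 over all genes. Without control 4 the median was -0.20, over the 16 keratins tested in that setting. A keratin passed the filter through its level in at least 1 group, so these counts describe the 14 and not the family. Each tumour has its own number in its title, some of them consecutive within a genotype, but the labels do not say whether these mark animals or litters, so p-values measure the spread between these samples.

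**Figure D4:**
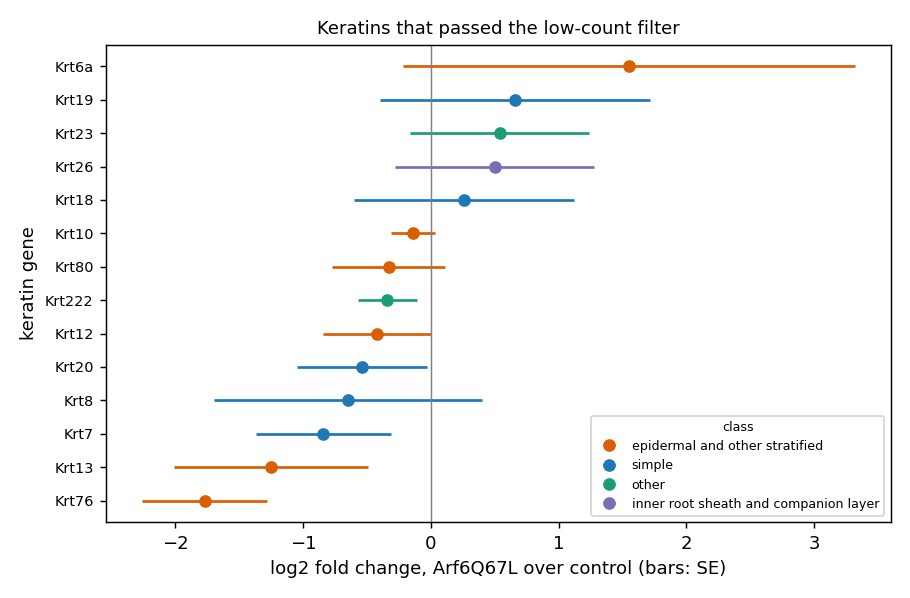
Log2 fold change of Arf6Q67L over control (points) with its SE (bars) for the 14 keratins that passed the low-count filter, coloured by class. Krt76 at -1.77 lies farthest below 0, and Krt6a at 1.55 farthest above it with the longest bar.

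Epidermal keratins of the basal layer were close to absent. Krt14 (chr11:100203162-100207548) had no count in 9 tumours and 41 counts, 1.17 CPM, in Arf6Q67L tumour 6. Its partner Krt5 had 25 counts, 0.715 CPM, in the same tumour, 1 count in control 1 and none elsewhere. Krt15, the third basal keratin, was also highest in Arf6Q67L tumour 6 at 0.400 CPM, as were Krt17 at 0.143 CPM, Krt2 at 0.343 CPM and Krt79, a keratin of the hair canal and sebaceous duct, at 1.32 CPM. Arf6Q67L tumour 6 was thus the one library with more than traces of basal epidermal keratin, and it had the lowest Krt8. Sox10, a melanocyte and Schwann cell factor, was also highest there at 2.83 CPM. The part of either in the other values of that tumour was not tested.

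Keratins of the upper epidermal layers were present in unequal amounts. Krt10, the type I chain, was nearly constant, with a lowest value of 3.695, a median of 4.24 and a highest of 5.14 CPM in Arf6Q67L tumours, against 4.67, 4.90, 5.57 and 4.03 CPM in controls 1 to 4. Its SD of log2 CPM within groups, 0.17, was larger than in only 17.9% of genes tested (log2 fold change -0.14, SE 0.17, edgeR adjusted p = 0.779). Krt1, its type II partner, did not exceed 0.817 CPM, and per kilobase it was between 0.0200 and 0.0798 of Krt10 in the 7 tumours where both were above 3 counts. An antisense transcript overlaps 6.9% of the exon bases of Krt10 and drew 67 counts in all. Krt9 of palm and sole skin had no count, and Krt77, which belongs to sweat ducts and embryonic epidermis, reached at most 0.0629 CPM.

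Krt6a, a type II keratin that wounded and hyperproliferative epidermis switches on, was high in single tumours of both genotypes. It stood at 0.0541, 0.469, 36.7, 28.6, 0.182 and 0.143 CPM in Arf6Q67L tumours 1 to 6, against 3.45, 0.755, 0.493 and 10.3 CPM in controls 1 to 4. Arf6Q67L tumours 3 and 4 lay above every control and tumours 1, 2, 5 and 6 below every control. Its log2 fold change of 1.55 (SE 1.77) had an edgeR adjusted p of 0.775, and limma-voom with sample weights gave -0.07. It was 0.65 without Arf6Q67L tumour 3 and 2.81 without control 4. Within groups the SD of log2 CPM was 3.20, larger than in 99.8% of genes tested. Krt16, the type I chain that pairs with Krt6a in wounds, was at most 0.330 CPM in any tumour. Krt6b matches Krt6a over 1193 bases at 97.0% identity, so that counting could split reads between them, and held 4 counts in all against 2572 for Krt6a. If multiply matching reads were dropped, both genes would lose them, so these counts cannot show the loss.

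Mucosal and other stratified keratins were low. Krt12, the type I keratin of corneal epithelium, had a median of 2.93 CPM in Arf6Q67L tumours, where it lay between 0.990 and 4.04 CPM, against 2.61, 2.86, 3.38 and 4.999 CPM in controls 1 to 4 (log2 fold change -0.42, SE 0.42, edgeR adjusted p = 0.738). It shares 54.4% of its exon bases with an antisense gene that drew 877 counts against its own 985, and the strand setting of the counting is not given in the sources used here, so the reads of the pair cannot be told apart. Krt80, a type II keratin found in many epithelia, had a median of 2.52 CPM and lay between 1.54 and 5.68 CPM in Arf6Q67L tumours, against 2.79, 3.55, 1.90 and 7.15 CPM in controls 1 to 4. Its fold change of -0.33 (SE 0.44) had an edgeR adjusted p of 0.807 and turned to 0.16 without control 4.

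Krt13, which pairs with Krt4 in the lining of mouth and oesophagus, had a lowest value of 0.224, a median of 0.581 and a highest of 2.62 CPM in Arf6Q67L tumours, against 1.17, 3.24, 0.352 and 3.25 CPM in controls 1 to 4. The groups overlapped (log2 fold change -1.25, SE 0.76, edgeR adjusted p = 0.564). Without Arf6Q67L tumour 2 the fold change was -2.02 (edgeR adjusted p = 0.447), and without control 4 it was -0.89. Krt4 reached 0.772 CPM in Arf6Q67L tumour 2, the Arf6Q67L tumour with the highest Krt13, but had 1 count in each control, among them the 3.24 and 3.25 CPM tumours for Krt13. Krt23, a type I keratin, stood between 0.325 and 2.45 CPM with a median of 0.847 CPM in Arf6Q67L tumours and at 0.735, 0.880, 1.48 and 0.201 CPM in controls 1 to 4 (log2 fold change 0.54, SE 0.70, edgeR adjusted p = 0.807). Krt222, an atypical member that lacks most of the rod, had a lowest value of 0.386, a median of 0.493 and a highest of 0.689 CPM in Arf6Q67L tumours, against 0.786, 0.597, 0.564 and 0.637 CPM in controls 1 to 4 (log2 fold change -0.34, SE 0.23, edgeR adjusted p = 0.605).

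Keratins of the hair shaft were essentially not detected, and those of the inner root sheath and companion layer were low. The 15 hair shaft members held 55 counts together in all 10 libraries, 8 of them had none, and the highest single value was 0.345 CPM for Krt87 in Arf6Q67L tumour 4. None of the 15 passed the filter. Among the 8 members of the inner root sheath and companion layer, Krt26 alone passed, at 0 to 1.22 CPM in Arf6Q67L tumours and 0.127 to 0.493 CPM in controls (log2 fold change 0.50, SE 0.78, edgeR adjusted p = 0.840). Several hair keratins are near copies of each other, such as Krt33a and Krt34 with 95.1% identity over 1123 bases, so single reads among them are uncertain.

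The genome places the family in 2 clusters, and the abundant members lie among neighbours at far lower levels per kilobase. Chromosome 11 holds 27 members within 1.04 Mb, and chromosome 15 holds 26 within 0.685 Mb. Krt8 (chr15:101996698-102004482) and Krt18 (chr15:102028180-102032027) are the last 2 members at the distal end of the chromosome 15 cluster, with Krt18 the one type I gene among type II genes. Their neighbour Krt78 had a mean of 0.0272 CPM per kilobase, against 588 for Krt8 and 114 for Krt18. Krt20 (chr11:99428403-99438150) stood at 212 CPM per kilobase between Krt12 at 1.58 and Krt23 at 0.669, and the 9 genes that follow Krt23, all hair keratins, were at or near 0. Krt76 (chr15:101884351-101892920), at 13.8 CPM per kilobase, lay between Krt77 at 0.00609 and Krt4 at 0.0681.

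**Figure D5:**
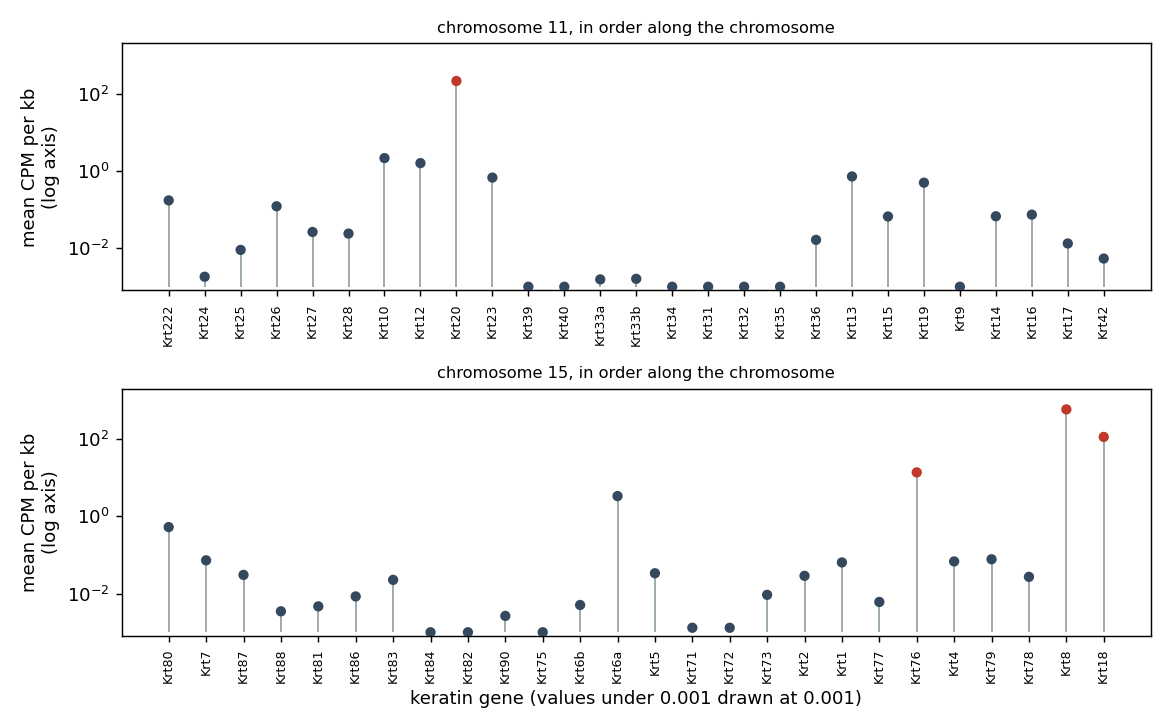
Mean level over the 10 tumours of each keratin in its order along chromosome 11 (top) and chromosome 15 (bottom), in CPM per kilobase of exon on a log axis, with red points for members at 10 or more. Krt20 is the one red point of the upper row, at position 9 of 27, and Krt8 and Krt18 close the lower one.

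The genes that work with keratins in epithelia were tested in the same fit. Of 27 genes of keratinocyte adhesion and identity, 19 were tested, 0 passed in edgeR in either direction, and the median log2 fold change was -0.22. At an unadjusted p under 0.05 in edgeR, 5 were lower and 0 higher, against 7.05% and 4.65% of all genes. The part of this list in the Krt76 difference was not tested. Pkp1, a desmosomal plaque protein that anchors keratin filaments, stood at 8.26, 12.8, 16.5, 11.9, 6.06 and 11.2 CPM in Arf6Q67L tumours 1 to 6, against 35.0, 32.2, 21.0 and 44.1 CPM in controls 1 to 4. The groups were separate, with a log2 fold change of -1.57 (SE 0.28), an edgeR adjusted p of 0.223 and a DESeq2 adjusted p of 2.75e-04. Itgb4, the hemidesmosomal integrin, averaged 72.4 ± 22.03 CPM in the 6 Arf6Q67L tumours and 206.5 ± 144 CPM in the 4 controls (SD; edgeR adjusted p = 0.283), Jup, or plakoglobin, 31.0 ± 4.41 CPM in Arf6Q67L tumours and 30.6 ± 4.97 CPM in controls (adjusted p = 0.974). The transcription factor Klf5 averaged 13.4 ± 8.10 CPM in Arf6Q67L tumours and 10.4 ± 3.33 CPM in controls (edgeR adjusted p = 0.799). Of the 27 genes, 16 had a mean of at least 1 CPM over the 10 tumours, among them Dsp at 11.5, Pkp3 at 10.9 and Sfn at 10.4 CPM. Epcam, Cdh1 and Trp63, chosen after values were seen, were lower than these, so they do not stand for the list. Epcam lay between 0.911 and 3.01 CPM in Arf6Q67L tumours and between 2.48 and 4.06 CPM in controls, the E-cadherin gene Cdh1 between 0.729 and 5.25 CPM in Arf6Q67L tumours and between 1.48 and 4.51 CPM in controls, and Trp63, the master factor of stratified epithelia, did not exceed 0.313 CPM.

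Genes of the cornified envelope were low or not detected. Of 31, 12 had no count, 8 were tested, 0 passed in edgeR and the median was -0.63. Tgm1, a crosslinking enzyme, averaged 4.54 ± 2.46 CPM in Arf6Q67L tumours (n = 6) and 3.77 ± 0.881 CPM in controls (n = 4). Sprr1a, an envelope precursor, averaged 2.52 ± 1.12 CPM in Arf6Q67L tumours and 1.39 ± 1.17 CPM in controls. Sbsn averaged 1.28 ± 0.525 CPM in Arf6Q67L tumours and 2.72 ± 1.67 CPM in controls. Cdsn, which joins the outermost cells of the epidermis, averaged 0.735 ± 0.442 CPM in Arf6Q67L tumours and 1.70 ± 2.27 CPM in controls, where control 4 alone held 5.10 CPM. Of 75 hair follicle partners, among them all Krtap genes, 53 had no count and 6 were tested, with 0 passing in edgeR and a median of 0.19. Sox9, a factor of follicle stem cells and of other tissues, averaged 36.95 ± 27.4 CPM in Arf6Q67L tumours and 38.4 ± 12.4 CPM in controls. Crisp1 averaged 17.7 ± 37.9 CPM in Arf6Q67L tumours and 8.39 ± 13.6 CPM in controls. Selenbp1 averaged 10.1 ± 3.65 CPM in Arf6Q67L tumours and 13.3 ± 6.22 CPM in controls, and the stem cell receptor Lgr5 4.76 ± 3.62 CPM in Arf6Q67L tumours and 2.85 ± 0.985 CPM in controls.

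Other intermediate filament genes were measured in every tumour. The 16  listed genes summed to between 5239 and 7254 CPM in Arf6Q67L tumours and between 4198 and 5353 CPM in controls. Of the 13 tested, 0 passed in edgeR and the median was 0.02. Sync, or syncoilin, a muscle filament protein, was the one member DESeq2 called, at 2.30, 4.03, 4.50, 2.57, 2.34 and 2.57 CPM in Arf6Q67L tumours 1 to 6, against 1.45, 1.10, 1.30 and 1.75 CPM in controls 1 to 4. The groups were separate, as they were for 2.44% of all genes (log2 fold change 1.12, SE 0.28, edgeR adjusted p = 0.239, DESeq2 adjusted p = 0.00771). Vim, the filament of mesenchymal cells, averaged 4736 ± 769 CPM in Arf6Q67L tumours and 3447 ± 553 CPM in controls, and 5 of 6 Arf6Q67L tumours lay above every control (log2 fold change 0.46, SE 0.16, edgeR adjusted p = 0.345). Lmna of the nuclear lamina (-0.04, SE 0.17) and the neurofilament chains Nefl (0.76, SE 0.45) and Nefm (0.59, SE 0.66) had edgeR adjusted p-values of 0.954, 0.555 and 0.770.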

How the data were processed

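Per the labels' protocols, RNA came from tumours by a Qiagen RNeasy column kit, and polyA-selected libraries by Illumina's TruSeq stranded chemistry. The authors deposited raw counts per gene in a single table. The submitters' processing notes list GRCm38, DESeq2 1.18.0, featureCounts 1.5.1 and STAR 2.5.2b with no roles. How strand and multiply matching reads were handled in counting, which bears on near-identical keratins, is not given in the sources used here. Genotype labels gave the groups, and tumour numbers follow accession order.

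Symbols, positions and merged exon lengths came from GENCODE M21 (GRCm38), which matched 52489 identifiers (99.7%). The robust quasi-likelihood test of edgeR 4.0.16 (R 4.3.3), with TMM factors and genotype as its term, was run on the 17286 genes that filterByExpr kept at a minimum count of 10, with Benjamini-Hochberg adjustment over them and a threshold of 0.05. A fold change is that of Arf6Q67L over control, with SE obtained by dividing it by the root of F. Log2 CPM used a prior count of 2. Single keratins were also compared by a two-sided exact permutation test over 210 splits (smallest p 0.00476), and correlations by 100000 permutations. Near copies were found with blastn 2.17.0 at 95% identity over 100 bases. Alternatives were DESeq2 1.42.0, its size factors in edgeR, no filter, limma-voom (limma 3.58.1) with quality weights, and leaving out each tumour. Simulated counts with known changes served to test the edgeR script.

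The text names keratins with a mean of at least 1 CPM, the 3 of lowest p in each direction, the 4 most abundant genes of each partner list, Arf6 and melanocyte markers; others named were chosen after values were seen. The members and lists were chosen with earlier results of these data known. None of the melanocyte, muscle, adipocyte or gland markers tested passed in edgeR (2, 8, 5 and 3 tested, median log2 fold changes -0.06, 0.47, -2.61 and 0.02). Muscle and gland epithelium markers summed to 15.8 to 763 and 1.79 to 8.41 CPM in Arf6Q67L tumours and to 3.24 to 1184 and 3.93 to 6.10 CPM in controls.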

Additional observations from a re-analysis of the deposited data

Results flagged for a closer look

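In 56 groups of values, those of 28 named genes in each genotype, 10 held a single value far from the rest. The rule gives about 1 in 20 for normally distributed values. It was applied to CPM without a log, and some of the values share a tumour, so the 10 cannot be set against that rate. Among keratins, Krt13 was at 2.62 CPM in Arf6Q67L tumour 2, with the next tumour of its group at 0.752 CPM. Krt7 was at 1.003 CPM in Arf6Q67L tumour 4, with the next at 0.442 CPM. Among partner genes, Itgb4 stood low in Arf6Q67L tumour 5 at 30.3 CPM, Lmna low in Arf6Q67L tumour 4 at 482 CPM and Jup low in control 1 at 23.2 CPM. Cdsn was high in control 4 at 5.10 CPM. Arf6Q67L tumour 3 was far above its group for Sox9 at 92.5 CPM and for Crisp1 at 94.6 CPM. Arf6Q67L tumour 1 was far above its group for Nefl at 982 CPM and for Nefm at 641 CPM.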

How the results depend on the processing

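DESeq2 called 402 genes, 153 higher and 249 lower, and 1 of them a keratin, while limma-voom with sample weights called 2 genes, 1 in each direction, and no keratin. Leaving out 1 tumour gave 0 to 1 genes past the threshold, the 1 without control 1, and 0 keratins in each case. With the size factors of DESeq2 or with no filter, edgeR called 0 genes. The median log2 fold change of the tested keratins lay between -0.50, without control 1, and -0.20, without control 4, and between -0.35 and -0.23 under the other settings. Each median is over the keratins tested in that setting, 16 without control 1 or 4, 19 in DESeq2, 44 with no filter and 14 otherwise. A shift can thus come from the set of genes as well as from the tumour left out. Of 196 refitted fold changes of the 14 tested keratins, 189 kept their sign. In limma-voom Krt6a turned to -0.07 and Krt8 was -2.09. Leaving out 1 tumour, Krt6a ran from 0.65 to 2.81, Krt13 from -2.02 to -0.89, Krt18 from -0.19 to 1.22, Krt19 from -0.34 to 1.52 and Krt80 from -0.59 to 0.16. The cause of these changes was not tested. No hair shaft keratin passed the filter, so that class has no median. No paired analysis was possible because the labels give no litter or batch by which to pair tumours across genotypes. For the 39 keratins under the filter, depth limits any comparison.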

Other observations

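Crisp1, a secreted protein on the list of hair follicle partners, was high in few tumours of both genotypes. Its highest Arf6Q67L values, 94.6 CPM (tumour 3) and 10.3 CPM (tumour 4), fell on the tumours with most Krt6a, and it was no more than 0.785 CPM in the other Arf6Q67L tumours. Among controls it was 28.4 CPM in control 1 and 4.90 CPM in control 3, and at most 0.201 CPM in controls 2 and 4. Control 4, with the second-lowest Crisp1 of the controls, had the highest Krt6a among them, so both genes did not rank the controls alike.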
